A study of Mus musculus with 3 samples.

Results

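The cells described here were heart endothelial cells marked by Lhx6, Vegfc, Kirrel3, Kcnc2, Samd5, Cysltr1 and Rasa4. A barcode was a member when it held at least 2 of these 7 genes and at least 1 UMI (unique molecular identifier, a counted RNA molecule) over Pecam1, Cdh5, Flt1, Tie1 and Eng. It could hold at most 1 UMI over the arterial, lymphatic and endocardial genes Gja5, Sema3g, Mmrn1, Reln, Npr3 and Smoc1. It could also hold at most 1 UMI over Pdgfra, Csf1r, Muc16 and Abcc9, which mark fibroblasts, macrophages, mesothelium and mural cells. The rule selected 1568 of 38646 barcodes, or 4.06%. There were 515 members in the Myh6-R404Q heart library, 256 in the Prkag2-p.R299Q library and 797 in the WT library.

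The study profiled all cells of collagenase-digested hearts from male C57/B6J mice by droplet 3′ single-cell RNA sequencing. Myh6-R404Q mice carry a point mutation in the alpha myosin heavy chain of cardiomyocytes, and Prkag2-p.R299Q mice carry one in a regulatory subunit of AMP-activated protein kinase. WT mice of the same strain were the control. The sources used here give neither age, nor treatment, nor how many animals each library came from. Each genotype had 1 library, so no test between genotypes was possible, and every interval below covers counting error only.

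Veins of the heart collect blood from the capillary bed, and their endothelium stores von Willebrand factor and presents adhesion molecules that let leukocytes leave the blood. Vein identity in the mouse depends on the nuclear receptor Nr2f2, which holds Notch signalling and the arterial programme down, whereas arterial endothelium uses Dll4 and Efnb2. Vegfc is best known as the ligand of the receptor Flt4, through which it drives the growth of lymphatic vessels.

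The libraries held 38247884 UMIs in Myh6-R404Q hearts, 31385005 in Prkag2-p.R299Q hearts and 41047991 in WT hearts, with medians of 2043, 2537 and 1559 UMIs per barcode in the same order. The matrix deposited for Myh6-R404Q repeated the Prkag2-p.R299Q and WT barcodes in full under the suffixes 1 and 2, with 0 entries that differed, so its 12662 barcodes with suffix 3 were taken as the Myh6-R404Q library. Between 28 and 51 barcode sequences were shared by any pair of libraries, and 1 of these was a member in both Myh6-R404Q and WT. Members had a median of 1732 UMIs in Myh6-R404Q hearts, 2174.5 in Prkag2-p.R299Q hearts and 1544 in WT hearts.

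Among barcodes that met the rule without its condition on the 7 genes, called endothelial-gate cells here, members made up 14.4% (95% exact binomial interval 13.3 to 15.6) in Myh6-R404Q hearts. They made up 13.4% (11.9 to 15.1) in Prkag2-p.R299Q hearts and 12.4% (11.6 to 13.2) in WT hearts. The share over WT was 1.16 (1.05 to 1.29) in Myh6-R404Q hearts and 1.08 (0.951 to 1.24) in Prkag2-p.R299Q hearts. Over all barcodes the order differed, with 4.07% in Myh6-R404Q hearts, 3.22% in Prkag2-p.R299Q hearts and 4.42% in WT hearts, since endothelial-gate cells made up 28.2%, 23.9% and 35.6% of these libraries. Depth differed between the libraries. Barcodes of at least 1000 UMIs were therefore also thinned to 1000 UMIs, which left out 1594 Myh6-R404Q, 850 Prkag2-p.R299Q and 4240 WT barcodes. In this smaller set members made up 9.77% of endothelial-gate cells in Myh6-R404Q hearts, 8.85% in Prkag2-p.R299Q hearts and 9.45% in WT hearts.

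The condition on the 7 genes was met narrowly by most members. Exactly 2 genes were detected in 59.0% of Myh6-R404Q, 55.9% of Prkag2-p.R299Q and 57.7% of WT members, and 4 or more in 87, 46 and 118 cells. Just below the threshold stood 826, 470 and 1378 endothelial-gate cells with 1 of the genes.

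The 7 genes are listed here because they chose the members, so their levels are a description. Lhx6, a LIM homeodomain transcription factor best known from cortical interneurons, had 124 CPM (the gene's share of all UMIs summed over the members, on the usual CPM scale) in Myh6-R404Q hearts, 146 CPM in Prkag2-p.R299Q hearts and 135 CPM in WT hearts. Vegfc had 775, 706 and 812 CPM in the same order, and Kirrel3, an immunoglobulin-family adhesion protein, had 754, 579 and 583 CPM. Kcnc2 encodes a voltage-gated potassium channel of fast-firing neurons and had 193, 179 and 218 CPM. The remaining genes were Samd5, a SAM-domain protein, at 277, 310 and 308 CPM, Cysltr1, a receptor for cysteinyl leukotrienes, at 131, 147 and 169 CPM, and Rasa4, a calcium-responsive Ras GTPase activator, at 216, 241 and 357 CPM.

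No gene was detected in all members. Lhx6 was detected in 22.7% of Myh6-R404Q, 28.9% of Prkag2-p.R299Q and 23.2% of WT members, against 0, 0 and 0.728% of fibroblast barcodes, which should lack it and were deeper (medians of 2312, 2951 and 2034 UMIs). Kcnc2 stood at 20.6, 20.3 and 21.5% of members against 0.694, 0.424 and 0.485% of fibroblast barcodes. Vegfc reached 73.0, 68.4 and 70.4% of members, but also 20.7, 23.3 and 17.0% of fibroblast barcodes, so it separates members from fibroblasts far less than Lhx6 or Kcnc2 does. In arterial cells Vegfc had 1031, 636 and 996 CPM, close to its level in members, from 27, 18 and 73 cells.

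On the mm10 build Lhx6 lies on chromosome 2 (36081953 to 36105408, minus strand), Vegfc on chromosome 8 (54077606 to 54187096, plus) and Kirrel3 on chromosome 9 (34485894 to 35036716, plus). Kcnc2 (112271121 to 112467024, plus) and Samd5 (9622936 to 9675208, minus) are on chromosome 10, Rasa4 on chromosome 5 (136083916 to 136111860, plus) and Cysltr1 on chromosome X (106574346 to 106603679, minus). The UMIs were assigned to whole genes, so no exon or UTR is singled out.

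The 7 genes tended to occur in the same cells. Over all endothelial-gate cells each of the 21 gene pairs was detected together more often than the product of the 2 shares within each library. The ratio of observed to product ran from 2.05 for Vegfc with Cysltr1 (214 cells against 105) to 3.78 for Lhx6 with Samd5 (164 against 43.3). Lhx6 and Vegfc were found together in 249 cells, against 88.2 from the product. Deeper cells detect more of every gene. The endothelial-gate cells were also mixed, as 4951 of the 11895 fell in clusters (below) with a median of 1 or 2 endothelial UMIs. Those cells also count in the shares of endothelial-gate cells above. The part of depth and of this mixture in the ratios was not tested.

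Clustering the 11895 endothelial-gate cells without the 7 genes, the 15 other genes of the rule and mitochondrial genes gave 22 clusters, and 1 of them, cluster 2, held 886 of the members. Of its 1481 cells, 59.8% (57.3 to 62.3) were members, and it held 54.0% of Myh6-R404Q, 61.7% of Prkag2-p.R299Q and 56.5% of WT members. Its 10 leading genes by fold were Kirrel3, Vwf, Rasa4, Vegfc, Kcnc2, Lhx6, Samd5, Cysltr1, Calcrl and Col13a1. All 7 genes of the rule were thus among the 10. The clustering had not used them, but the rule was chosen with earlier results of these data known. Their place here therefore describes the cluster and tests nothing.

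Across the clusters Lhx6 had 141 CPM in cluster 2 and at most 44.8 CPM in any other. Rasa4 had 337 CPM against at most 76.4 CPM, Kirrel3 had 729 CPM against at most 224 CPM, and Samd5 had 319 CPM against at most 94.2 CPM. Cysltr1 had 160 CPM in cluster 2 and 95.9 CPM in cluster 7, which is led by the macrophage genes F13a1 and Mrc1. Kirrel3, Vegfc and Kcnc2 were shared with other endothelium. Kirrel3 was detected in 25.2% of Myh6-R404Q, 25.0% of Prkag2-p.R299Q and 15.6% of WT endocardial cells. In members it was detected in 49.3, 36.3 and 40.3%. Vegfc had 946 CPM in cluster 2 and 834 CPM in cluster 11, which is led by Mannr, Lama3, Fbln5 and the arterial genes Bmx and Sox17. Kcnc2 had 218 CPM in cluster 2 and 353 CPM in cluster 12, which is led by the endocardial genes Nrg1, Tmem108 and Cdh11.

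**Figure D1:**
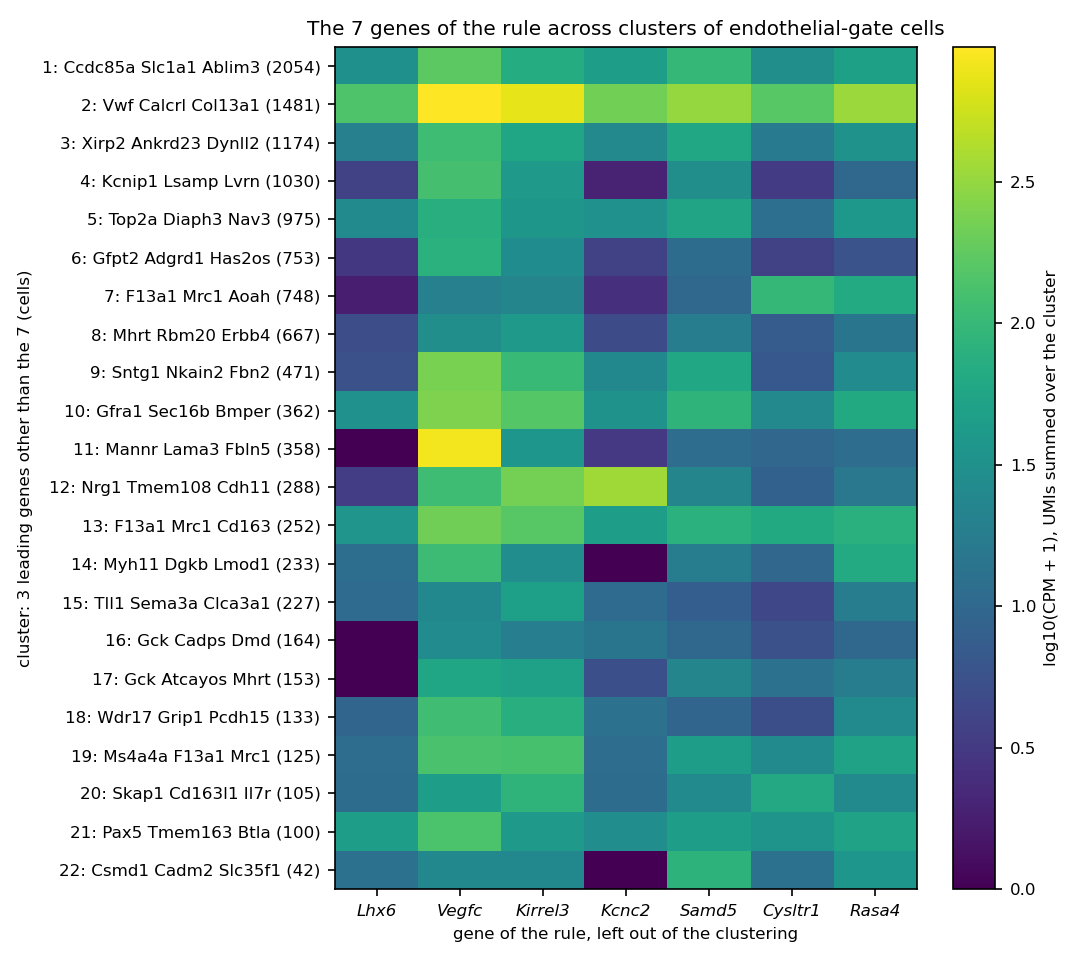
Level of each of the 7 genes (columns) in each of 22 clusters of endothelial-gate cells (rows, with leading genes and cell number), as log10(CPM + 1) of UMIs summed over the cluster. The row of cluster 2 is the brightest for every gene but Kcnc2, which is higher in cluster 12, and Vegfc is nearly as bright in cluster 11.

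The more of the 7 genes a cell held, the more often it lay in cluster 2. Cells with none were there in 2.44% of cases, cells with 1 in 15.3%, cells with 2 in 46.5%, cells with 3 in 65.4% and cells with 4 or more in 78.1%. The members outside cluster 2 are given in 2 sets, split only by the median endothelial UMIs of their cluster. A set of 426 (27.2%) lay in 7 clusters whose cells had a median of at least 3 endothelial UMIs. Among them were 114 in a cluster led by Ccdc85a and the capillary gene Slc1a1. Others of this set lay in clusters led by Gfra1 and Sec16b (95 members), by Xirp2 and Ankrd23 (60) and by F13a1 and Mrc1 (57). Leading genes of other cell types thus occurred in this set too. The other 256 (16.3%) lay in 14 clusters with a median of 1 or 2 endothelial UMIs, led for instance by cardiomyocyte or macrophage genes.

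Members inside and outside cluster 2 differed in depth and doublet calls. Members inside had median depths of 1552 UMIs in Myh6-R404Q hearts, 1949.5 in Prkag2-p.R299Q hearts and 1391.5 in WT hearts, and 0 of 278, 0 of 158 and 6 of 450 of them were called doublets by Scrublet. Members outside had 2238, 2956.5 and 2137 UMIs, and 35.4%, 39.8% and 50.7% were called doublets. Myh6, the cardiomyocyte myosin, stood at 2418, 2272 and 2793 CPM inside and 6903, 5215 and 5981 CPM outside, and the macrophage gene F13a1 at 35.9, 17.7 and 55.8 CPM inside and 286, 1048 and 465 CPM outside. Members outside cluster 2 thus carried more RNA of both genes. Neither gene was left out of the clustering, so this contrast describes the clusters and tests nothing. Results are given below for all cells of cluster 2 as well where they differ.

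Some genes outside the rule, general endothelial genes among them, rose with the number of the 7 genes detected. Vwf, the von Willebrand factor, had 46.8, 94.1, 196, 418 and 479 CPM in Myh6-R404Q cells with 0, 1, 2, 3 and 4 or more of the genes. The series was 18.6, 33.6, 116, 338 and 599.9 CPM in Prkag2-p.R299Q hearts and 34.4, 106, 305, 428 and 505 CPM in WT hearts. Calcrl, the receptor subunit for adrenomedullin, had 235, 287, 523, 783 and 989 CPM in Myh6-R404Q hearts, 230, 281, 533, 1162 and 1751 CPM in Prkag2-p.R299Q hearts and 205, 333, 698, 1066 and 1725 CPM in WT hearts.

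Both genes were higher at every added gene in each library. Nr2f2 went the same way in WT hearts, at 52.4, 78.0, 148, 159 and 259 CPM, and in both mutants it was level between 0 and 1 gene and higher from 2 genes on. Btnl9, a capillary gene, ran the other way in WT hearts, at 155, 123, 69.9, 50.9 and 50.1 CPM, while Kdr, the main VEGF receptor of capillaries, moved little, from 218 CPM with none to 184 CPM with 4 or more in WT hearts. The median depth of the cells was also higher along these steps, at 1242 UMIs with none and 1658 with 4 or more in WT hearts. A list of 16 general endothelial genes outside the rule, Calcrl among them, summed to 3385, 4140, 6335, 7339 and 10225 CPM there. Pecam1 had 355 CPM with none and 693 CPM with 4 or more, and Myh6 had 6657 and 2982 CPM. The part of depth and of other cells' RNA in these steps was not tested.

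**Figure D2:**
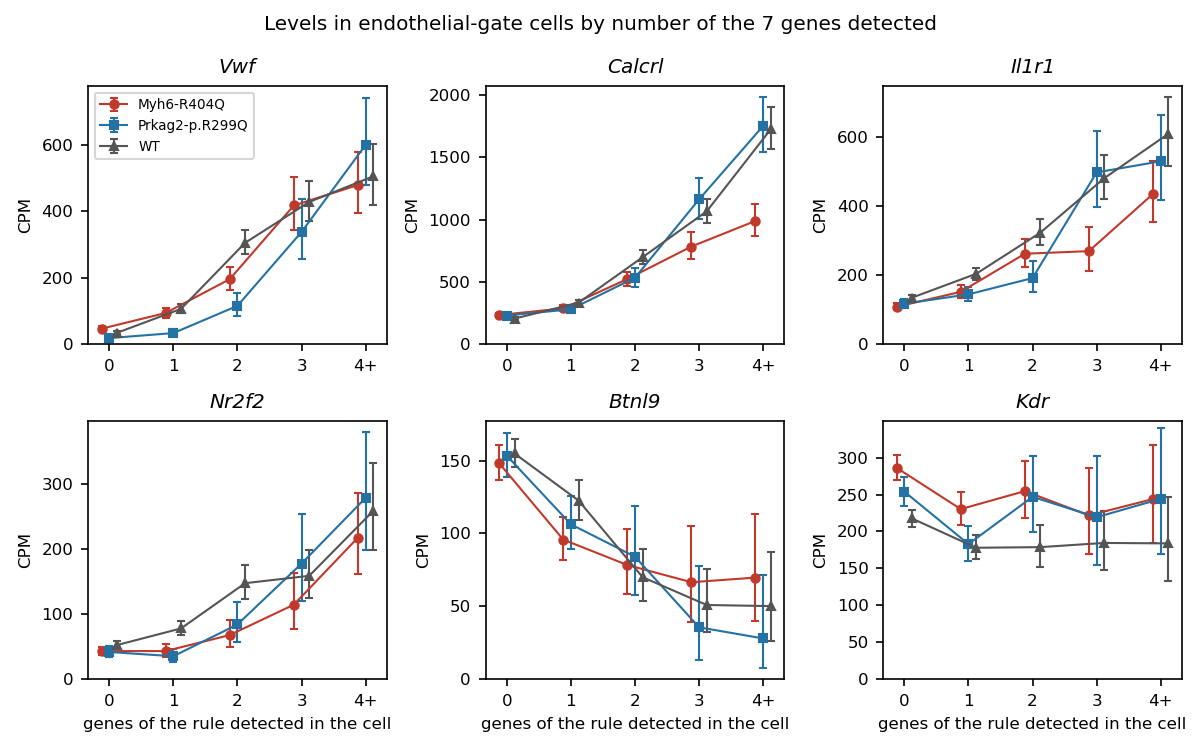
Level (CPM of summed UMIs, with 95% Poisson intervals) of 6 genes in endothelial-gate cells, by how many of the 7 genes of the rule a cell held, for Myh6-R404Q (circles), Prkag2-p.R299Q (squares) and WT (triangles). Vwf, Calcrl, Il1r1 and Nr2f2 are highest at 4 or more genes in each library, Btnl9 is lower there than at 0, and Kdr is nearly level.

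Members were next set against capillary reference cells of the same library, which held none of the 7 genes, at least 3 endothelial UMIs and at least 2 of Btnl9, Cd300lg, Car4, Rgcc, Gpihbp1 and Kdr (568 cells in Myh6-R404Q hearts, 306 in Prkag2-p.R299Q hearts and 751 in WT). Of 9935 genes with at least 10 CPM on either side in every library, 3.49% were at least 1.5-fold higher in members in all 3 libraries and 1.78% at least 1.5-fold lower. Both groups were chosen by their RNA, so these values describe the cells and test nothing.

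Of 13 measured vein genes, 6 were at least 1.5-fold higher in members in all 3 libraries (Nr2f2, Vwf, Vcam1, Ephb4, Flrt2 and Il1r1) and 0 were lower. The list's median log2 ratio was 0.59 in Myh6-R404Q hearts, 0.81 in Prkag2-p.R299Q hearts and 1.01 in WT hearts, against 0.05, 0.04 and 0.03 over all genes. Vwf had 303 CPM in members and 38.2 CPM in capillary cells of Myh6-R404Q, 270 and 15.6 CPM in Prkag2-p.R299Q hearts, and 371 and 14.9 CPM in WT hearts. These are ratios of 7.94 (5.78 to 11.2), 17.3 (9.46 to 35.3) and 24.9 (16.0 to 41.1). Vwf was detected in 30.1, 27.7 and 29.5% of members, against 3.65, 0.636 and 2.43% of the deeper fibroblast barcodes.

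Nr2f2 had 108 CPM in members against 30.2 CPM in capillary cells of Myh6-R404Q, 147 against 39.7 CPM in Prkag2-p.R299Q hearts, and 167.5 against 33.5 CPM in WT hearts. Il1r1, the interleukin-1 receptor, was 3.73, 4.31 and 4.13 times as high as in capillary cells, and Vcam1, which captures leukocytes, 2.87, 5.24 and 5.21 times. Ephb4, the receptor that marks veins opposite arterial Efnb2, was 1.62, 1.62 and 2.03 times as high. The genes of postcapillary venules most often used in other tissues were low. The chemokine receptor Ackr1 was detected in 0 of 515, 1 of 256 and 1 of 797 members, and the 0 UMIs in Myh6-R404Q allow a level of up to 2.58 CPM (3 UMIs). P-selectin (Selp) was detected in 7, 2 and 19 members, or 1.36, 0.781 and 2.38%, and in 0 of 568, 1 of 306 and 0 of 751 capillary cells. It had 8.59, 2.89 and 25.4 CPM in members, and it was not counted as measured because it was under 10 CPM in both mutant libraries.

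The vein list did not separate members from endocardial or lymphatic cells. Summed over its 16 genes it came to 2382, 2415 and 2389 CPM in members and 1509, 1450 and 1112 CPM in capillary cells. It came to 6796, 6850 and 5834 CPM in endocardial cells and 2860, 2986 and 2592 CPM in lymphatic cells. Endocardial cells carried more Vwf (761, 737 and 796 CPM) and more Vcam1 (414, 441 and 518 CPM) than members did. Nr2f2 was also higher than in members in both, at 209, 190 and 186 CPM in endocardial cells and 345, 455 and 373 CPM in lymphatic cells. Endocardial markers outside the rule were low in members, at 869.5, 799.6 and 844 CPM summed over 8 genes, against 8774, 11189 and 9752 CPM in endocardial cells. Il1r1 and Calcrl ran the opposite way, and Calcrl had 675, 938 and 958.5 CPM in members, 362, 287 and 251 CPM in endocardial cells and 280, 325 and 259 CPM in capillary cells. The name vein-like therefore describes these cells here relative to capillary cells, by Vwf, Nr2f2, Il1r1 and Ephb4, while Ackr1 was detected in at most 1 member of a library.

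Arterial genes were lower by the list's median, while their summed level was close to that of capillary cells. Of 9 measured arterial genes outside the rule, Efnb2, Dll4 and Unc5b were at least 1.5-fold lower in all 3 libraries and Stmn2 was higher. The list's medians were -0.96, -0.34 and -0.65, and its 14 genes summed to 2017, 2185 and 2148 CPM in members and 2078, 2034 and 2021 CPM in capillary cells. Dll4, the arterial Notch ligand, had 10.3 CPM in members and 61.3 CPM in capillary cells of Myh6-R404Q, 7.22 and 53.9 CPM in Prkag2-p.R299Q hearts, and 10.6 and 41.0 CPM in WT hearts. Efnb2 was 0.327, 0.391 and 0.310 times the capillary level. Another Notch ligand, Dll1, was 2.49, 2.80 and 1.91 times as high, from 36, 11 and 39 UMIs in members. Of 12 capillary genes outside the reference's rule, Aqp7, Tcf15 and Sgk1 were lower and 0 higher, and the list's medians were -0.37, -0.56 and -0.54.

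The genes furthest above capillary cells included parts of the secretory machinery of endothelium. Myrip had 107 against 14.2 CPM in Myh6-R404Q hearts, 154 against 17.0 CPM in Prkag2-p.R299Q hearts and 145 against 17.1 CPM in WT hearts. Rab27a was 5.10, 4.67 and 6.28 times as high. Both are known to control the release of the Weibel-Palade bodies that store Vwf. Neither was particular to members, as endocardial cells had 141, 157 and 166 CPM of Myrip and 148, 132 and 115 CPM of Rab27a. Of 8 measured haemostasis genes, Vwf, Entpd1 and Proser2 were higher in all 3 libraries and 0 lower. Entpd1, which breaks down ATP and ADP at the cell surface, was 5.19, 3.57 and 4.72 times as high. It had 406, 577 and 646 CPM in members and 563, 720 and 537 CPM in endocardial cells.

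Elastin (Eln) had 313 CPM in members and 43.5 CPM in capillary cells of Myh6-R404Q, 399.8 and 42.5 CPM in Prkag2-p.R299Q hearts, and 491 and 59.6 CPM in WT hearts, though arterial cells had 918, 518 and 2033 CPM. Thsd7a, a thrombospondin-domain protein, was 5.14, 5.13 and 4.74 times as high. It had 743, 945 and 942 CPM in members and 721, 830 and 691 CPM in lymphatic cells. Of the prostaglandin genes, the synthase Ptgs1 was 3.92, 4.29 and 4.41 times as high and the transporter Slco2a1 4.43, 6.84 and 5.31 times. Both were also high in endocardial cells, where Ptgs1 had 197, 195 and 158 CPM.

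Of 17 listed ion channels 9 were measured, and 4 of these were at least 1.5-fold higher in all 3 libraries and 0 lower. Over all genes 3.49% were that much higher and 1.78% that much lower. Piezo2, a stretch-activated cation channel, had 78.2 CPM in members and 6.22 CPM in capillary cells of Myh6-R404Q, 90.9 and 4.25 CPM in Prkag2-p.R299Q hearts, and 71.4 and 10.4 CPM in WT hearts. It stood at 11.5, 5.50 and 6.28 CPM in endocardial cells but at 480, 494 and 356 CPM in lymphatic cells. Trpv4, a calcium channel, was 2.50, 3.64 and 2.80 times its capillary level, and the potassium channel Kcnt2 3.44, 2.26 and 1.54 times, with 2326, 2395 and 2129 CPM in endocardial cells.

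Of the VEGF ligands and receptors outside the rules, 0 of 5 measured genes were higher or lower in all 3 libraries. Flt4, the receptor for the Vegfc these cells carry, had 29.2, 27.4 and 29.8 CPM in members and 681, 710 and 588 CPM in lymphatic cells. Vegfc itself chose the members, so its level beside that of Flt4 is no finding. Further below capillary cells were Slc1a1, a glutamate transporter, at 0.0937, 0.0912 and 0.153 times the capillary level, Cobl, an actin nucleator, at 0.272, 0.263 and 0.256 times, and the unconventional myosin Myo10 at 0.281, 0.280 and 0.284 times. Interferon response, MHC, immediate early, heat shock and Wnt lists had 0 genes past 1.5-fold in all 3 libraries in either direction.

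**Figure D3:**
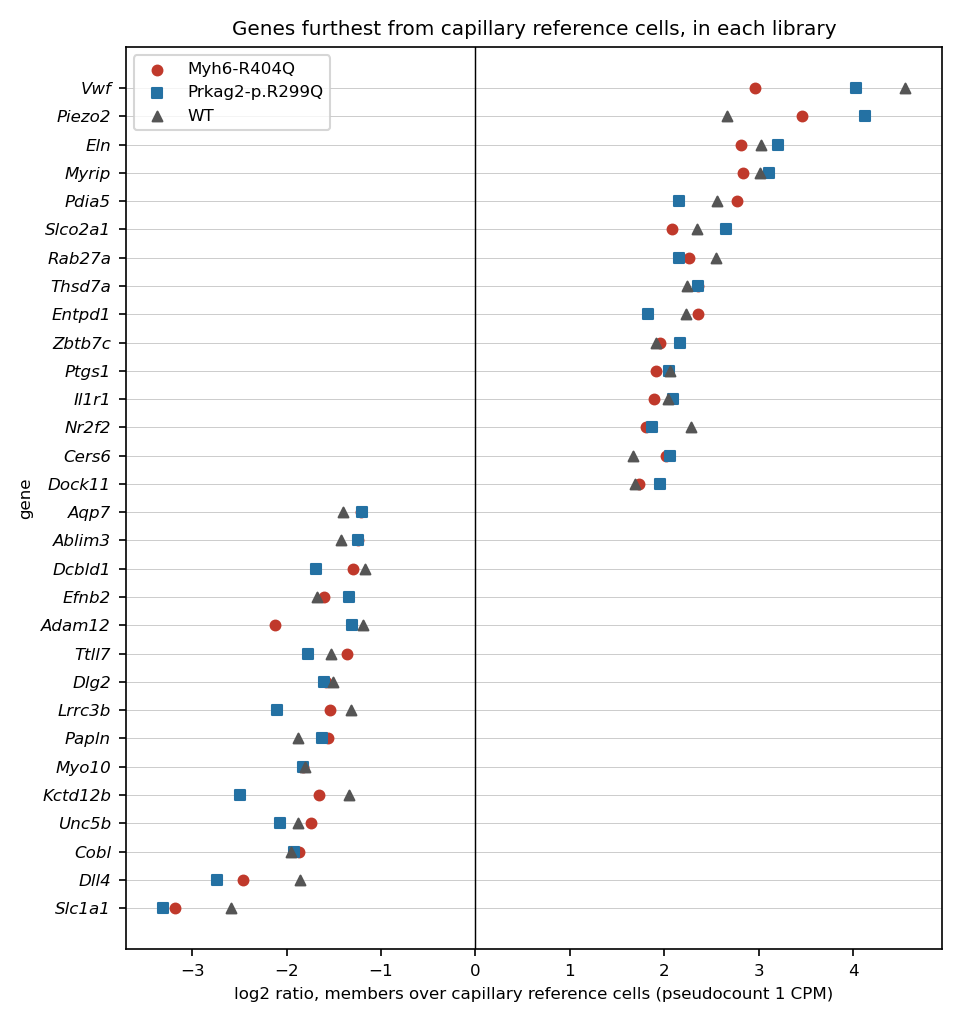
The 15 genes furthest above and the 15 furthest below capillary reference cells, as log2 ratios of CPM (pseudocount 1 CPM) in Myh6-R404Q (circles), Prkag2-p.R299Q (squares) and WT (triangles). Each gene lies on the same side of 0 in all 3 libraries, and Vwf is highest in WT and lowest in Myh6-R404Q.

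Cardiomyocyte and macrophage RNA moved with this comparison. The 10 cardiomyocyte markers summed to 17021, 13222 and 19257 CPM in members and to 27936, 24835 and 29503 CPM in capillary cells, with none at 0. The 10 macrophage markers summed to 474, 1051 and 632 CPM in members and 253, 570 and 615 CPM in capillary cells, and Cd163 was at least 1.5-fold higher in all 3 libraries. The part of other cells' RNA in the genes above was not tested. Vwf had 580, 410 and 649 CPM among members inside cluster 2 and 113, 136 and 177 CPM among members outside it, and it was one of the genes the clustering used.

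Mutant members were then compared with WT members. Of 10886 genes with at least 10 CPM on either side, 10.2% were at least 1.5-fold higher and 7.01% at least 1.5-fold lower in Myh6-R404Q than in WT hearts. For Prkag2-p.R299Q the shares were 11.8% higher and 10.4% lower of 10978 genes. Both comparisons use the same WT library, and a genotype cannot be told apart from its library.

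The gene that differed most in the cells of cluster 2 was Cmah, the hydroxylase that turns the sialic acid Neu5Ac into Neu5Gc. Relative to WT it was the lowest gene in both mutants among named genes with at least 50 CPM and a ratio of at least 2-fold with an interval beyond 1.5-fold. In cluster 2 it had 60.0 CPM in Myh6-R404Q hearts and 24.4 CPM in Prkag2-p.R299Q hearts, against 253 CPM in WT hearts, from 44, 13 and 256 UMIs. The ratios were 0.238 (0.168 to 0.328) and 0.0968 (0.0508 to 0.168). Among all members Cmah had 66.2 and 50.5 CPM in the mutants against 140.2 CPM in WT hearts.

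The members split sharply for this gene. Those inside cluster 2 had 65.4 CPM of Cmah in Myh6-R404Q hearts, 17.7 CPM in Prkag2-p.R299Q hearts and 253.5 CPM in WT hearts. Those outside it had 66.7, 81.9 and 61.1 CPM, and the libraries did not differ there in the same way. In capillary cells Cmah had 20.4, 32.6 and 49.1 CPM, with ratios to WT of 0.416 (0.247 to 0.677) and 0.663 (0.394 to 1.08), and over all barcodes 120, 107 and 134 CPM. Cmah lies on chromosome 13 at 24327404 to 24477377, plus strand. Genes other than those of the rule could shape the clustering, and Cmah was not left out of it.

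Selp was also lower in the mutants. In cluster 2 it had 16.4 CPM in Myh6-R404Q hearts and 9.40 CPM in Prkag2-p.R299Q hearts, against 55.2 CPM in WT hearts, from 12, 5 and 56 UMIs, with ratios of 0.296 (0.144 to 0.559) and 0.170 (0.0532 to 0.421). Other vein genes went either way in the same cells. Nr2f2 had 162 and 205 CPM in the mutants against 249 CPM in WT hearts, Il1r1 425 and 462 CPM against 621.5 CPM, and Vwf 494 and 333 CPM against 576 CPM. Aplnr, the apelin receptor and also on the vein list, was higher in both mutants, at 84.5 and 111 CPM against 45.4 CPM in WT hearts. Calcrl, which is on the list of general endothelial genes, had 1068 and 1291 CPM against 1523 CPM.

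Nr2f2, Il1r1, Vwf and Calcrl were each lower in both mutants than in WT hearts, with ratios to WT from 0.577 to 0.857. Over the whole vein list in cluster 2 the median log2 ratios were -0.12 in Myh6-R404Q cells and -0.21 in Prkag2-p.R299Q cells. Of 14 measured genes, 3 and 4 were at least 1.5-fold lower and 1 higher in each. Over all genes in cluster 2, 10.9% and 13.6% were that much lower and 11.9% and 12.5% that much higher. In members the medians were 0.00 and -0.12. Of the 7 genes of the rule, Rasa4 was lower in both mutants, at 248 and 254 CPM in cluster 2 against 445 CPM in WT hearts, with ratios of 0.558 (0.467 to 0.664) and 0.570 (0.467 to 0.693). The other 6 were within 1.5-fold of WT in cluster 2, and Kirrel3 was above WT in Myh6-R404Q hearts (ratio 1.26) and below it in Prkag2-p.R299Q hearts (0.784).

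Heat shock genes were lower in both mutants. The list's median was -0.59 in Myh6-R404Q members and -0.54 in Prkag2-p.R299Q members. Of 11 measured genes, 6 and 5 were at least 1.5-fold lower and 0 higher. Over all genes 7.01% and 10.4% were that much lower. Hsph1, a co-chaperone of Hsp70, had 31.8 and 36.1 CPM in the mutants against 89.3 CPM in WT hearts, and Hsp90aa1, the inducible Hsp90, had 67.9 CPM in Myh6-R404Q against 143 CPM in WT hearts. The same genes were lower in capillary cells, where Hsph1 was 0.337 and 0.629 times WT and Hsp90aa1 0.553 and 0.501 times. They were lower over all barcodes too, so the difference was not particular to members. There Hsph1 had 27.9 and 44.6 CPM in the mutants against 76.5 CPM in WT hearts, and Hsp90aa1 74.1 and 78.7 CPM against 125 CPM.

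The acute phase and metallothionein list had a median of -0.59 in members of Myh6-R404Q hearts and -0.10 in those of Prkag2-p.R299Q hearts. In cluster 2 the medians were -0.53 and -0.55, with 6 of 12 genes at least 1.5-fold lower in each and 0 higher, where 10.9% and 13.6% of all genes were that much lower. There the metallothionein Mt1 had 49.1 and 48.9 CPM against 115 CPM in WT hearts, and the cell-cycle inhibitor Cdkn1a 23.2 and 16.9 CPM against 68.1 CPM. Mt1 was lower in capillary cells too, at 0.541 and 0.549 times WT. Lrg1, an inflammatory glycoprotein, and Serpina3n, an acute phase protease inhibitor, had at most 3 UMIs in either mutant's cells of cluster 2 and 31 and 33 UMIs in WT hearts.

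**Figure D4:**
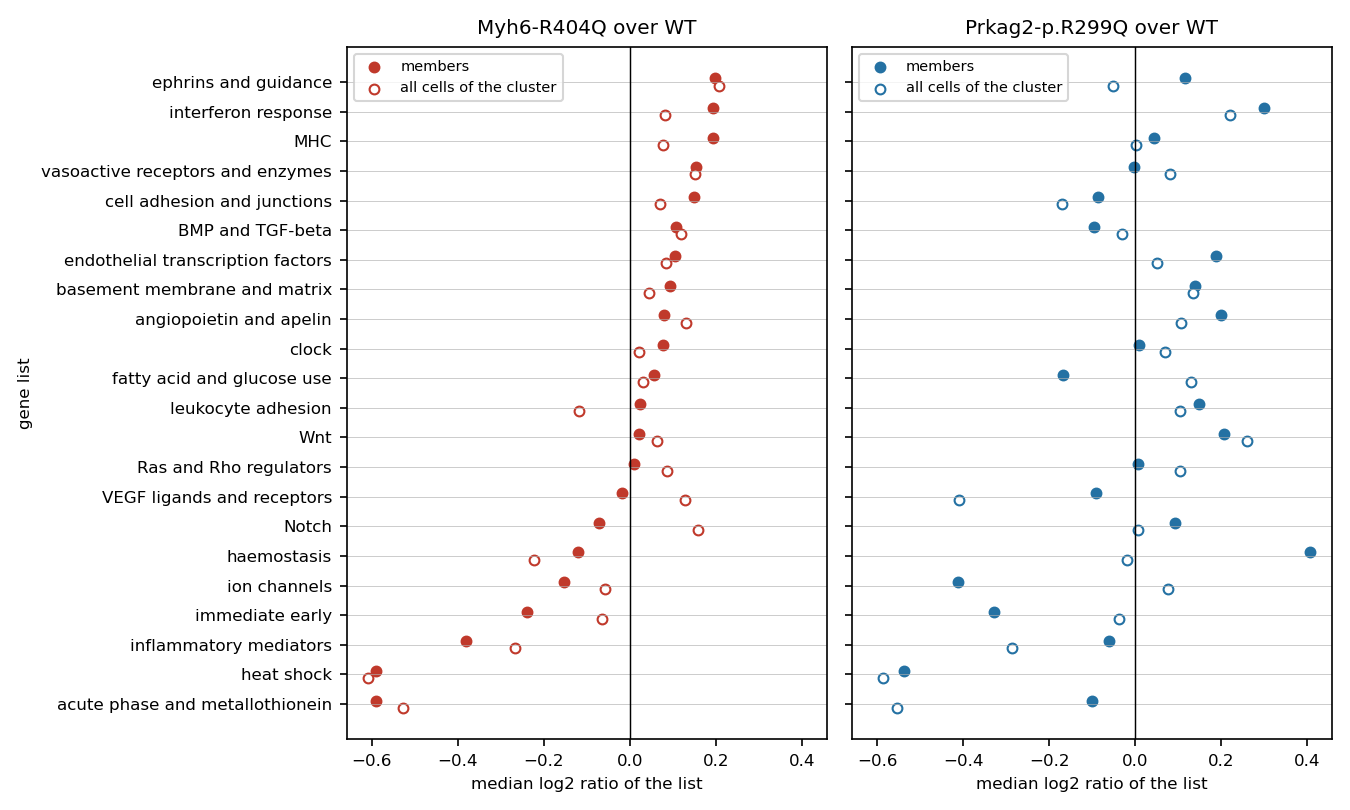
Median log2 ratio of each of 22 gene lists, Myh6-R404Q over WT (left) and Prkag2-p.R299Q over WT (right), in members (filled) and in all cells of cluster 2 (open). Heat shock lies near -0.6 in both mutants for both groups of cells, and the acute phase list does so except in Prkag2-p.R299Q members.

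Both mutants also had genes above WT. In Myh6-R404Q members 5 genes passed the size rule upward, namely Cldn5, Gas2, Mmp15, Gstt2 and Sparcl1. All 5 were higher in capillary cells than in members of each library. A cluster with 47.5% capillary reference cells, led by Top2a and Diaph3, held 8.16% of Myh6-R404Q, 5.47% of Prkag2-p.R299Q and 1.63% of WT members. It held 14.8%, 14.4% and 2.71% of all endothelial-gate cells in the same order. In cluster 2 Gstt2 and Sparcl1 passed the size rule too. The part of capillary cells among the members in these differences was not tested. Cldn5, the tight-junction claudin of endothelium, had 60.1 CPM in Myh6-R404Q hearts, 15.9 CPM in Prkag2-p.R299Q hearts and 21.7 CPM in WT hearts, which made it higher in Myh6-R404Q than in either other library (2.77, 1.82 to 4.28, over WT). Sparcl1, a matricellular protein, had 182 CPM in Myh6-R404Q against 84.4 CPM in WT hearts, and capillary cells showed a ratio of 1.90. Downward, 7 genes passed, namely Ifitm10, Hsph1, Nkain2, Dnah3, Idh3a, Cmah and Hsp90aa1. The rule asks that a gene be at least as high in the cells as over all barcodes of the higher library, and 26 genes were lower without that condition.

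In Prkag2-p.R299Q members the genes above WT were Csmd1, H2-T23, Bank1, Furin and Aplnr, and those below were Cmah, Hsph1, Nkain2 and Dynll2, or 32 genes without the condition on all barcodes. Bank1, a B cell adaptor, had 114 CPM in Prkag2-p.R299Q against 44.7 CPM in WT members, and 9.40 against 5.92 CPM in cluster 2. Of 3 measured B cell genes, Bank1 and Pax5 were at least 1.5-fold higher in Prkag2-p.R299Q members, with a list median of 1.33, and the part of B cell RNA was not tested. Aplnr had 80.8 CPM in Prkag2-p.R299Q against 32.9 CPM in WT members (2.46, 1.66 to 3.65), and 111 against 45.4 CPM in cluster 2. Csmd1, which leads a small cluster together with the Schwann cell genes Cdh19 and Kcna1, was 2.83 times WT in members but 0.544 times WT in cluster 2 (7.52 against 13.8 CPM). The insulin receptor Insr was lower in the Prkag2-p.R299Q cells of cluster 2, at 197 CPM against 546.5 CPM in WT (0.361, 0.290 to 0.446), and was 0.832 (0.667 to 1.03) times WT in capillary cells.

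**Figure D5:**
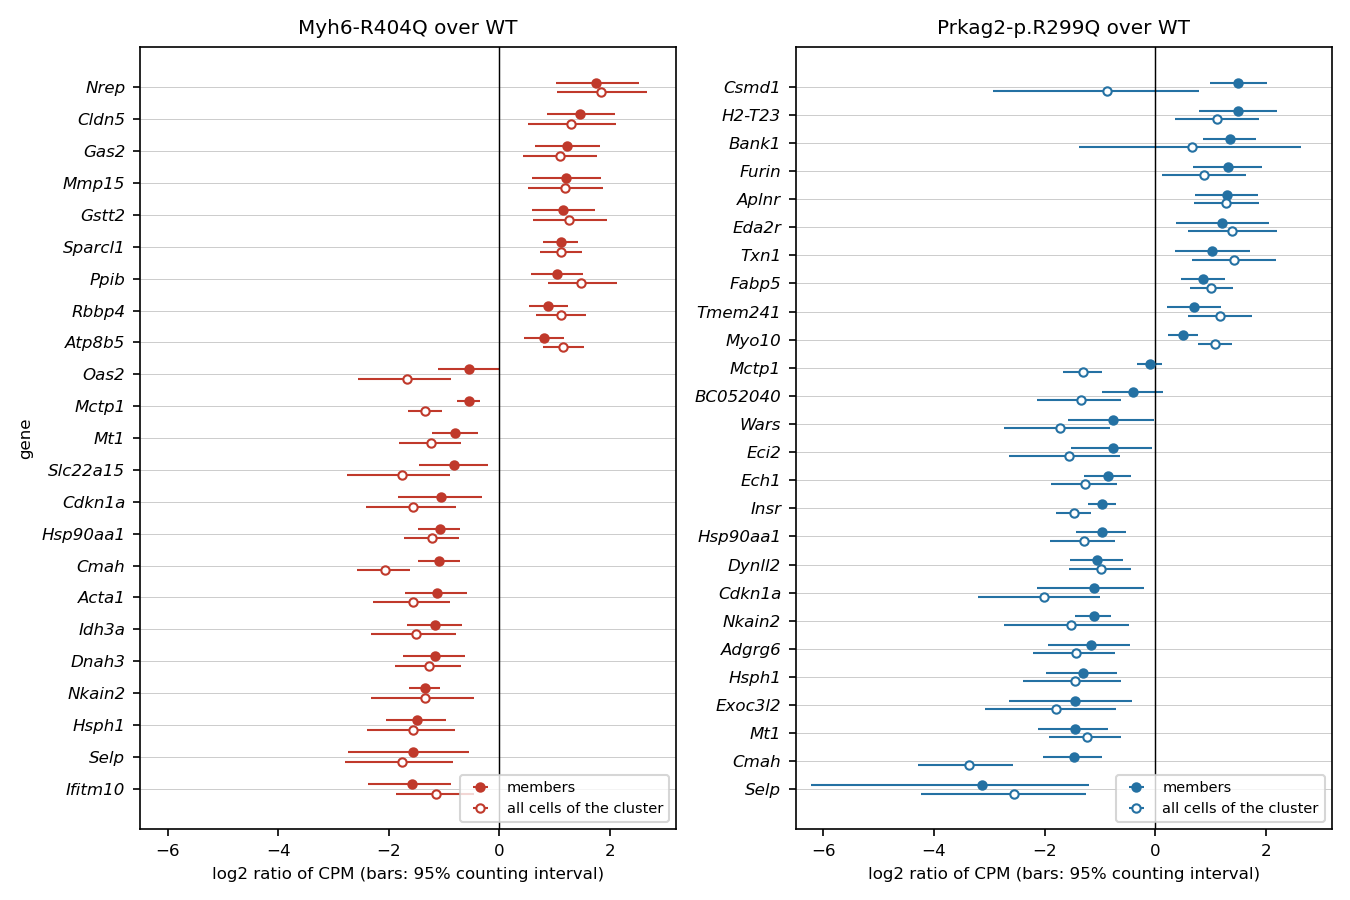
Log2 ratios of CPM, Myh6-R404Q over WT (left) and Prkag2-p.R299Q over WT (right), in members (filled) and all cells of cluster 2 (open), with 95% counting intervals, for genes that passed the size rule in either group of cells. Cmah lies further below 0 in cluster 2 than in members in both panels, and Csmd1 changes side.

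Between the mutants, 9.74% of 11124 genes were at least 1.5-fold higher and 11.7% lower in Prkag2-p.R299Q than in Myh6-R404Q members. Cldn5 was lower in Prkag2-p.R299Q hearts, at 0.264 times Myh6-R404Q in members and 0.202 times in cluster 2. The macrophage gene Cd163 was higher, at 85.2 against 19.8 CPM, and it stood at 11.8 and 2.11 CPM among members inside cluster 2.

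Markers of other cells also differed between the libraries. In members the mesothelial markers summed to 247 CPM in Myh6-R404Q hearts, 205 CPM in Prkag2-p.R299Q hearts and 153 CPM in WT hearts, with none at 0, and to 840, 542 and 389 CPM over all barcodes. Msln had 30.9, 15.9 and 3.10 CPM in members. The 10 cardiomyocyte markers had median log2 ratios to WT of -0.02 in Myh6-R404Q members and -0.53 in Prkag2-p.R299Q members, with Myl2 at least 1.5-fold higher and Ryr2 lower in Myh6-R404Q, and Ttn, Ryr2 and Tnnc1 lower in Prkag2-p.R299Q. Ryr2 had 955 and 1094 CPM in the mutants against 2441 CPM in WT members. The part of these in the genotype differences was not tested.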

How the data were processed

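The authors deposited UMI counts per gene and barcode from Cell Ranger 7.0.1 on mm10, per the submitters' processing notes, and a 10x 3′ v.3 kit was used on cells passed through a 70 µm strainer, per the labels' protocols. These deposited counts were used for barcodes of 500 UMIs or more and 300 genes or more, with no more than 20% of UMIs from mitochondrial genes, which left out 1 barcode. Counts were summed per library and cell group and given as CPM of that sum, with exact Poisson, binomial or conditional binomial 95% intervals. Log2 ratios used a pseudocount of 1 CPM. Genes at 10 CPM or more on either side counted as measured.

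Doublets were called with Scrublet and kept. Clusters came from scanpy 1.11.5 and leidenalg 0.10.2 (2000 variable genes, 20 components, 20 neighbours, resolution 1). Arterial, lymphatic and endocardial cells held at least 2 UMIs over their own gene pair and at most 1 over each other pair. Fibroblast barcodes held at least 2 Pdgfra UMIs and no endothelial UMI. Intervals and ratios were tested on simulated data.

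The text names the genes of the rule, the 15 highest and 15 lowest against capillary cells at 50 CPM or more, and list genes. For genotypes it names genes at 50 CPM or more and 2-fold or more with an interval beyond 1.5-fold, and a level no lower than over all barcodes of the higher library. Cluster 2 was added after values were seen, and members, lists and rules were chosen with earlier results of these data known.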

Additional observations from a re-analysis of the deposited data

How the results depend on the processing

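No paired analysis was possible because each genotype had 1 library. Of the values compared under other settings, 1811 single genes and lists and 79 main values kept their direction and size within the spread allowed, 295 and 35 moved, and 4 and 1 reversed. Under the settings of the report, the log2 share over WT was 0.22 in Myh6-R404Q hearts and 0.12 in Prkag2-p.R299Q hearts, the vein medians (genes measured in each library) were 0.59, 0.81 and 1.03, 347 and 177 genes were higher and lower than in capillary cells, and 1873, 2441 and 2387 genes passed 1.5-fold in Myh6-R404Q over WT, Prkag2-p.R299Q over WT and Prkag2-p.R299Q over Myh6-R404Q. With 3 or more of the 7 genes, 280 genes were lower than in capillary cells and 3034, 3684 and 3771 passed between genotypes. With 3 or more endothelial UMIs the Myh6-R404Q share was 0.043. Without called doublets the vein median in Myh6-R404Q was 1.08. Thinned to 1000 UMIs, without barcodes under 1000 UMIs, the shares were 0.049 and -0.094 (reversed) and the Prkag2-p.R299Q vein median 1.64. The lower count was then 318, the genotype counts 3951, 5002 and 5058, and Cdh19 between the mutants -1.60 (reversed). With the Myh6 matrix as deposited the lower count was 280, and the Myh6-R404Q counts 155 and 1183. At 50 CPM the counts were 160, 104, 346, 499 and 408, and at 1 UMI 671, 373, 7224, 8142 and 7349. Members inside cluster 2 gave vein medians of 1.33 in Myh6-R404Q hearts and 1.56 in WT hearts, a lower count of 709, 3286 genes for Myh6-R404Q over WT, and Csmd1 at -0.57 in Prkag2-p.R299Q hearts (reversed). All cells of cluster 2 gave a Prkag2-p.R299Q share of 0.31, vein medians of 1.08 and 1.53, a lower count of 653, and Csmd1 at -0.80 (reversed). A reference chosen without capillary genes gave 179 and 117 genes and Ctsh at -0.12 in WT (reversed). Where the size of these moves was not set by fewer cells or genes, the cause was not tested. Depth limits Selp, Ackr1, Dll1 and the arterial cells.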
